A study of Mus musculus with 5 samples.

Results

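In single-cell libraries of mouse skin, 770 of 11942 cells that passed the cell filters (13288 barcodes were deposited) carried transcripts of complement C1q but few transcripts of resident dermal macrophages. They were chosen on unique molecular identifiers (UMIs, 1 per captured transcript molecule). A cell needed at least 3 UMIs of C1qa, C1qb and C1qc together, at most 2 of the resident-macrophage genes Mrc1, Cd163, F13a1 and Folr2 together, and at least 1 of Csf1r, Cd68 and Fcgr1 together. S100a8 and S100a9, which mark neutrophils, had to stay under 4% of its UMIs, and Cd207, Cd3e and Cd3g, which mark Langerhans and T cells, had to be at 0. These cells are called gated cells in what follows. The label given to them, monocyte-derived C1q macrophages, could not be checked as to origin, since no lineage tracing was available. They are therefore named by the rule that chose them.

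The study set 2 psoriasis-like conditions beside untreated skin, with 1 library for each group. Lesional skin was whole skin with psoriasis-like lesions from K5. Pp6fl/fl mice of strain C57BL/6, 18 weeks old and given no treatment. Imiquimod dermis came from wild type C57BL/6 mice, 10 weeks old, whose ears had received imiquimod on 5 consecutive days. Untreated dermis came from wild type C57BL/6 mice, 10 weeks old. K5 names keratin 5, whose promoter is active in basal keratinocytes, so that the floxed Pp6 (protein phosphatase 6) alleles were aimed at the epidermis and not at macrophages. The Cre, the number of animals behind a library, and where on the body skin was taken from untreated and K5. Pp6fl/fl mice are not named in the labels.

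C1q is the recognition subunit of the classical complement pathway and is made in skin mostly by macrophages. Monocytes that enter inflamed dermis switch off Ly6c2 and Plac8 and switch on macrophage genes such as Ms4a7 and Apoe, while macrophages that have long lived in the dermis carry Mrc1, Cd163, Folr2 and Lyve1. Imiquimod activates the receptor encoded by Tlr7 and drives interferon-rich inflammation with neutrophils and monocytes.

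Lesional skin held 33 gated cells among 2652 (1.24%, exact binomial 95% interval 0.858 to 1.74%). Imiquimod dermis held 702 among 4991 (14.1%, 13.1 to 15.1%), and untreated dermis held 35 among 521 (6.72%, 4.72 to 9.22%). The gate counts raw UMIs, so the shares depend on depth. With the gate on cells thinned to 2000 UMIs they were 2.76%, 12.0% and 13.1%. The imiquimod share was then not above that of untreated dermis. Lesional skin was whole skin and the others were dermis, so these shares have different denominators. The libraries of untreated and of non-lesional epidermis held 0 of 905 and 0 of 2873, which allow shares of up to 0.331% and 0.104%. Among cells with C1q that passed the same gate whatever their resident genes, gated cells made up 22.8% of 145 in lesional skin (16.2 to 30.5%), 50.3% of 1397 in imiquimod dermis (47.6 to 52.9%) and 17.6% of 199 in untreated dermis (12.6 to 23.6%). The rest of these cells, with at least 3 UMIs of the resident genes, are called resident-type and numbered 112, 695 and 164. All intervals in this account cover counting error only, and with 1 library a group no difference between groups has a replicate check.

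The gated cells had a median of 8046 UMIs in lesional skin, 8924.5 in imiquimod dermis and 3089 in untreated dermis, and pooled totals of 356008, 7471514 and 193171 UMIs. The largest single cell supplied 12.6%, 0.678% and 14.0% of those totals. No gated cell shared a barcode with a gated cell of another library. The lesional library stood apart in its barcodes: 13.4% of its barcodes began with 7 bases that also began a barcode of the imiquimod library, whereas this held for 69.9% of imiquimod barcodes against the untreated dermis and for 100% the other way round. It also held both cells with Xist and no Y-linked UMI (752) and cells with Y-linked UMIs and no Xist (1103), whereas the imiquimod and untreated dermis held 0 of the first kind against 2485 and 242 of the second. Age, genotype, tissue, body site and library preparation therefore cannot be told apart from the condition in any comparison of lesional skin below. For sex, the comparison with imiquimod dermis was repeated on gated cells with Y-linked UMIs alone.

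The C1q level, which chose the cells, is given as a description. Gated cells had a median of 39.2 C1q UMIs per 10000 UMIs in lesional skin (quartiles 22.9 and 98.6), 9.93 in imiquimod dermis (3.52 and 36.7) and 54.3 in untreated dermis (23.6 and 91.7). Resident-type cells had 122, 35.8 and 91.1. In imiquimod dermis, cells that should make no C1q also reached the 3-UMI line, namely 38.6% of 373 T cells, 37.3% of 330 fibroblasts and 21.4% of 702 neutrophils, at median depths of 8922, 11471.5 and 4080 UMIs. In lesional skin the line was reached by 0.501% of 399 T cells and 0 of 655 fibroblasts, and in untreated dermis by 17.9% of 95 T cells. So the gate on raw UMIs admitted imiquimod cells whose C1q counts were no higher than those of many T cells and fibroblasts beside them.

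A floor of 20 C1q UMIs per 10000, set after the data had been seen, was passed by 28 of 33 gated cells in lesional skin (84.8%), 276 of 702 in imiquimod dermis (39.3%) and 26 of 35 in untreated dermis (74.3%). It was also passed by 0% of T cells in lesional skin, 8.31% in imiquimod dermis and 14.7% in untreated dermis, and by 2.73% of imiquimod fibroblasts. The gated cells that passed it are called C1q-rich gated cells, and the comparisons between libraries and with resident-type cells are given for them as well. Of all cells past the filters, they made up 1.06% in lesional skin and 5.53% in imiquimod dermis (4.91 to 6.20%). In untreated dermis they made up 4.99% (3.29 to 7.23%), so the imiquimod and untreated intervals overlapped. RNA of other cell types moved with the group: fibroblast markers took 0.00786% of gated-cell UMIs in lesional skin (Col1a1, Lum and Pdgfra at 0, 3 of 6 markers detected), 0.270% in imiquimod dermis (6 of 6 detected) and 0.0839% in untreated dermis (Lum at 0). Neutrophil markers took 0.00646%, 0.345% and 0.00725%. Markers of keratinocytes, fibroblasts, endothelial cells, mast cells, T cells and neutrophils together passed 0.5% of UMIs in 1, 146 and 1 gated cells, and in 0, 35 and 0 of the C1q-rich ones. Langerhans markers, counted apart, passed 0.5% in 3, 0 and 0 gated cells and in 2, 0 and 0 of the C1q-rich ones, and a UMI of Epcam, one of them, was found in 7, 19 and 1 gated cells.

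**Figure D1:**
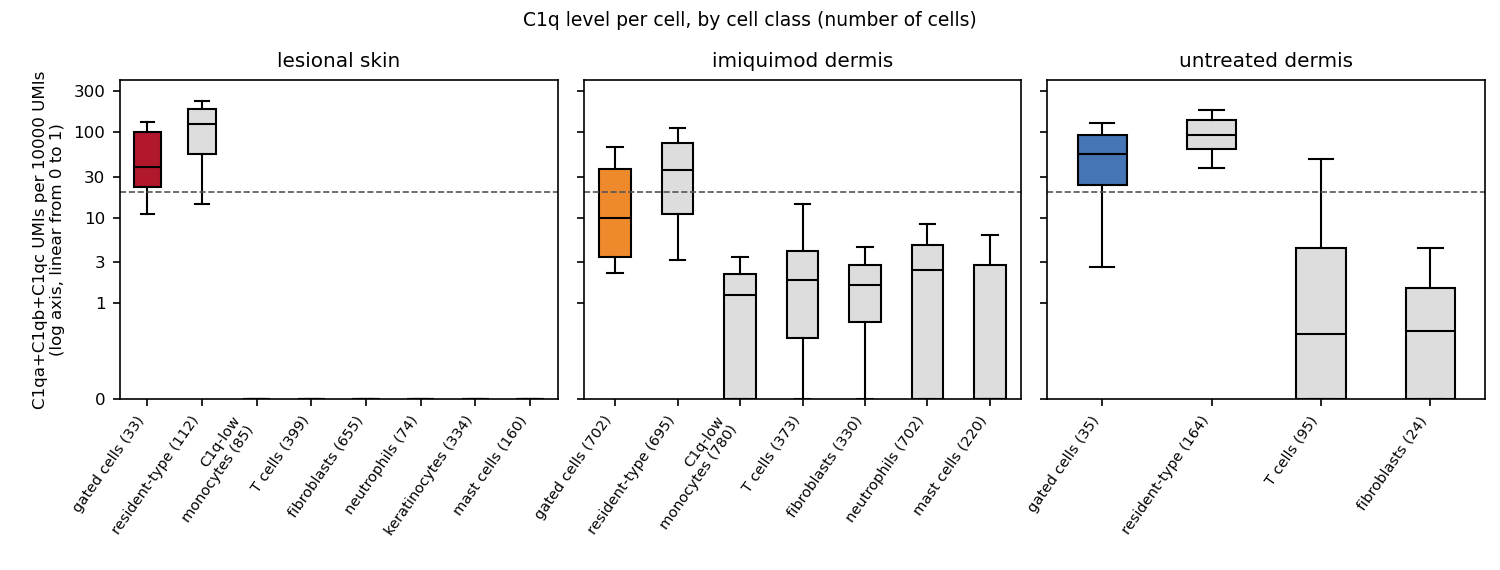
C1qa, C1qb and C1qc UMIs per 10000 UMIs of a cell (log axis, linear between 0 and 1) by cell class in lesional skin, imiquimod dermis and untreated dermis. Boxes span the quartiles around the median, whiskers run between the 10th and 90th percentiles of cells, numbers of cells are in parentheses, and the dashed line is 20 per 10000. Imiquimod gated cells (median 9.93) lie between the resident-type cells (35.8) and the T cells, fibroblasts and neutrophils of the same library, while in lesional skin the classes other than the first 2 sit at 0.

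The other genes that chose the cells are described in the same way. C1qa, C1qb and C1qc together stood at 4463 CPM (UMIs per 1000000 UMIs of the pooled cells) in lesional gated cells, 2055 in imiquimod gated cells and 3422 in untreated gated cells. Csf1r, the receptor for macrophage colony-stimulating factor, stood at 396 CPM in lesional and 154 CPM in imiquimod gated cells, the lysosomal glycoprotein gene Cd68 at 587 and 228 CPM, and the high-affinity IgG receptor gene Fcgr1 at 61.8 and 100 CPM. The edge of the gate was soft in imiquimod dermis: the 160 cells with exactly 3 C1q UMIs, just inside, had 51.0 CPM of Ms4a7 and 2142 CPM of Plac8, and the 289 cells with 2, just outside, had 55.1 and 1710.3 CPM. In lesional skin the edge held 2 cells inside (366 CPM of Ms4a7) and 3 outside (66.1 CPM), and in untreated dermis 7 inside (12.1 CPM) and 16 outside (32.8 CPM). On the resident-gene side, gated cells with 2 UMIs and the cells just outside with 3 had 1118 and 731 CPM of Ms4a7 in lesional skin (8 and 9 cells), 284 and 374 CPM in imiquimod dermis (163 and 120 cells), and 254 and 174 CPM in untreated dermis (17 and 10 cells).

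Ms4a7, a tetraspan gene of mature macrophages that the gate did not use, could be compared with cells that should lack it. It stood at 607 CPM in lesional gated cells, 200.2 in imiquimod gated cells and 181 in untreated gated cells, and among C1q-rich cells at 900.4, 488 and 410.2 CPM. With every cell thinned to 2000 UMIs and shallower cells left out (4, 30 and 13), an Ms4a7 UMI was seen in 55.2% (exact binomial 95% interval 35.7 to 73.6%), 27.5% (24.2 to 31.1%) and 27.3% (10.7 to 50.2%) of gated cells, against 0.275% (0.00697 to 1.53%), 10.8% (7.71 to 14.6%) and 9 of 82 (5.14 to 19.8%) T cells, T cells with C1q UMIs included. Without thinning it was seen in 20 of 33, 343 of 702 and 16 of 35 gated cells. The share was above that of T cells beyond counting error in lesional skin and imiquimod dermis, while in untreated dermis the intervals met.

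The monocyte genes Ly6c2 and Plac8 were lower in lesional than in imiquimod gated cells. Plac8 had 61.8 CPM in lesional gated cells and 1049 CPM in imiquimod gated cells, 17.0-fold lower in lesional skin (interval 11.2 to 27.1), and 25.9 CPM in untreated ones. Ly6c2 had 5.62, 199 and 98.4 CPM, the lesional value resting on 2 UMIs (35.4-fold lower than in imiquimod dermis, 9.79 to 293). After thinning, Plac8 was seen in 3.45%, 46.1% and 4.55% of gated cells, but also in 27.4% of imiquimod T cells. Ccr2, the receptor that draws monocytes into tissue, had 267 CPM in lesional and 173 CPM in imiquimod gated cells, a ratio of 1.55, and 306, 150.1 and 181 CPM in the C1q-rich cells of lesional, imiquimod and untreated skin. Adgre1, encoding the macrophage surface protein F4/80, had 211 CPM in lesional and 174 CPM in imiquimod C1q-rich cells (1.22-fold higher, 0.885 to 1.64). Cx3cr1 had 134 and 159 CPM there, the IgG receptor gene Fcgr4 73.2 and 140.4 CPM, the arginase gene Arg1 0 and 27.9 CPM, and Cxcl9, an interferon-gamma target, 0 and 6.20 CPM.

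The main comparison asked how gated cells of lesional skin differed from those of imiquimod dermis. A gene was called where the whole 95% interval of its CPM ratio lay beyond 1.5-fold. Of 8009 genes compared, 1102 (13.8%) were higher in lesional gated cells and 389 (4.86%) were lower. Scaled by the median ratio of all genes in place of total UMIs, which lowers every log2 ratio by 0.44, the split turned to 569 higher and 800 lower (41.6% of calls higher, against 73.9%), so list medians are given beside the median of all genes (0.34). Among C1q-rich gated cells, 793 of 7125 (11.1%) were higher and 249 (3.49%) lower, with an all-gene median of 0.35. With the cell richest in each gene left out of each library, the split turned to 474 higher and 506 lower of 7100 genes. With gated cells that had Y-linked UMIs and no Xist alone, 773 genes were higher and 266 lower. Without C1q-rich cells of over 0.5% RNA of other cell types (Langerhans markers not counted), 829 of 7070 (11.7%) were higher and 245 (3.47%) lower. List medians are of log2(CPM + 5), which understates low genes. Of 20 monocyte genes, 1 was higher and 5 were lower (median log2 ratio -0.68), and of 18 among C1q-rich cells 2 and 4 (-0.42).

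Genes of lipid handling and the lysosome were mostly higher in lesional cells. Of 35 measured, 29 were higher and 1 lower in lesional gated cells (median log2 ratio 1.56), and 28 were higher and 0 lower among C1q-rich cells (1.43). Spp1, encoding the secreted matrix protein osteopontin, stood at 3663 CPM in lesional gated cells, 47.2 in imiquimod gated cells and 51.8 in untreated gated cells, 77.5-fold higher in lesional than in imiquimod cells (68.9 to 87.4). Among C1q-rich cells it stood at 5437, 29.2 and 12.1 CPM, a lesional over imiquimod ratio of 186 (145 to 242). The last of these 3 levels was 1 UMI.

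Gpnmb, a transmembrane glycoprotein gene of lipid-laden macrophages, had 1354 CPM in lesional and 34.0 CPM in imiquimod gated cells, 39.8-fold higher, and 21.1-fold higher with the cell richest in it left out of each library. Mmp12, encoding macrophage elastase, had 1888 and 17.3 CPM, 109-fold higher (90.4 to 133). A single lesional cell held most of its UMIs, and without the richest cell of each library the ratio was 26.0 (19.8 to 34.2). Trem2, a lipid-sensing receptor, had 404 and 74.4 CPM (5.44-fold higher, 4.49 to 6.54). Apoe, the lipid carrier, had 6921 and 1109 CPM (6.24-fold higher). Cd36, a scavenger receptor for oxidised lipids, had 492 and 9.24 CPM (53.2-fold higher). Among C1q-rich cells the ratios were 44.5 for Gpnmb, 25.0 for Mmp12, 3.22 for Trem2, 4.88 for Apoe and 22.1 for Cd36. The lysosomal proteases Ctsd and Ctsl were 4.72-fold and 6.91-fold higher there, and Plin2, a coat protein of lipid droplets, 5.65-fold higher. In the resident-type cells of the same libraries Spp1 had 766, 54.4 and 103 CPM, Gpnmb 883, 22.0 and 45.5 CPM, and Mmp12 653, 8.96 and 8.87 CPM in lesional, imiquimod and untreated skin, so high lesional levels of these 3 genes were not limited to gated cells.

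Since Spp1, Mmp12 and Gpnmb stood together in the same lesional cells, the 250 bases before their start sites are shown (RefSeq, build GRCm38.p6, plus strand, 5′ to 3′). Capitals mark an AP-1 motif (TGAGTCA) at positions -44 to -38 from the Mmp12 start at chr9:7347124-7347373, and a PU.1 motif (GAGGAAGT) at -113 to -106 from the Spp1 start at chr5:104434861-104435110. The Gpnmb stretch, chr6:49036268-49036517, holds neither motif nor the E-box CACGTG on either strand.
Spp1: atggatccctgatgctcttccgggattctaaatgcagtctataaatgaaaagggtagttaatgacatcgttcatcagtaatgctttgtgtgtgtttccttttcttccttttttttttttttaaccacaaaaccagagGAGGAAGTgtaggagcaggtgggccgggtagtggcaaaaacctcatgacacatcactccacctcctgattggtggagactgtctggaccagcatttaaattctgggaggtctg
Mmp12: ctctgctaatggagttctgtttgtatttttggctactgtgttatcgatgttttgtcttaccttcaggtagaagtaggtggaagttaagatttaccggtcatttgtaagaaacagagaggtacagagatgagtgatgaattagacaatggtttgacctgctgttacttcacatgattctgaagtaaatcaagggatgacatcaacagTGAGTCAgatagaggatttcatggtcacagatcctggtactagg
Gpnmb: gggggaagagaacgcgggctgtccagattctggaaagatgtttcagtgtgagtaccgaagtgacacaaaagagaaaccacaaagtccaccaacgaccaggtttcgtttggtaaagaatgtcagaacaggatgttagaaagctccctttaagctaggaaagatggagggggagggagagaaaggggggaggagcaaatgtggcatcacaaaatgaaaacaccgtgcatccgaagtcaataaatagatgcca
Searched on both strands, the AP-1 motif was found in 5.16% of 27025 genes with promoter stretches of this length, the PU.1 motif in 2.79% and the E-box in 6.86%. Of the 35 lipid and lysosome genes 28 had a promoter entry, and 2, 2 and 4 of them held the 3 motifs in any of their entries. The PU.1 match of Mmp12 lies in its other RefSeq promoter entry, which is not shown. A match is a run of letters and not a measured binding site.

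Matrix genes and genes for the uptake of dead cells were also more often higher than lower. Of 20 matrix and protease genes measured, 10 were higher and 3 lower in lesional gated cells (median 0.67), and 10 of 19 were higher and 1 lower among C1q-rich cells (1.46). Mmp19, a secreted metalloprotease, had 593 CPM in lesional and 27.7 CPM in imiquimod gated cells, 21.4-fold higher and 7.94-fold without the richest cells. Pdgfa, a growth factor for fibroblasts, was 14.6-fold higher among C1q-rich cells (142 and 9.74 CPM) and Fn1, fibronectin, 6.60-fold (164 and 24.8 CPM). Of 15 uptake genes, 8 were higher and 2 lower (median 1.09), or 9 and 0 among C1q-rich cells (1.70). Mfge8, which bridges dying cells to phagocytes, had 2621 and 57.7 CPM, 45.4-fold higher but 9.63-fold without the richest cells. Mfge8 is also on the list of Langerhans markers. Of its 933 lesional UMIs, 777 were in 1 cell, and the next 83 and 40 were in 2 C1q-rich cells with Epcam and no Ms4a7. The receptor tyrosine kinase Axl had 94.8 and 9.74 CPM in C1q-rich cells (9.73-fold higher).

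Transcription factors came next. Of 30 transcription factors measured, 12 were higher and 0 lower in lesional gated cells (median 0.94), and 13 and 0 among C1q-rich cells (1.06). Bhlhe40, a basic helix-loop-helix repressor gene, had 224 CPM in lesional and 33.2 CPM in imiquimod C1q-rich cells (6.75-fold higher, 4.64 to 9.74), and Klf4, a zinc-finger factor of monocyte differentiation, 452 and 132 CPM (3.42-fold higher, 2.71 to 4.28). Stress genes were higher beside them: of 28 immediate-early and dissociation genes 14 were higher and 0 lower, or 20 and 0 among C1q-rich cells. The lists overlap, and Klf4, Klf6, Egr1 and Atf3 were counted as higher on both. Hspa1b, an inducible heat-shock gene, had 9969 CPM in lesional and 996 CPM in imiquimod gated cells, 9097 and 867 CPM in resident-type cells, and 12087 and 1289 CPM in monocytes with little C1q. It was also higher in lesional T cells (13359 and 942 CPM), fibroblasts (5477 and 668 CPM), neutrophils (3551 and 803 CPM) and mast cells (8476 and 1834 CPM), so the difference was found in each of the 7 classes measured in both libraries. Its part in the other differences was not tested. Of 13 mitochondrially encoded genes, 12 were higher and 0 lower.

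Genes that were lower in lesional gated cells included interferon-stimulated genes, chemokines and acute-phase genes. Of 27 interferon-stimulated genes, 1 was higher and 6 lower (median -0.45), and 1 of 26 was higher and 5 lower among C1q-rich cells (-0.65, or -0.52 with genes at 0 set to their bound). Ifitm3, which blocks virus entry, had 447 CPM in lesional and 2619.7 CPM in imiquimod gated cells, 5.87-fold lower, and 345 and 1535 CPM among C1q-rich cells, 4.46-fold lower (3.57 to 5.63). Irf7, a regulator of interferon genes, and Isg15, a ubiquitin-like protein gene, had 1 lesional UMI each in C1q-rich cells (17.6-fold lower, 3.11 to 698, and 16.2-fold lower, 2.87 to 645). Tlr7 itself was scarce, at 16.9 and 7.63 CPM, and none of 9 toll-like receptor genes was called.

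Of 18 chemokines, 2 were higher and 9 lower (median -1.11), and 4 and 5 among C1q-rich cells (-0.39). Ccl8, which attracts monocytes, had 22.5 CPM in lesional and 217 CPM in imiquimod gated cells (9.68-fold lower), and among C1q-rich cells 0 and 453 CPM, at least 35.1-fold lower in lesional skin. Ccl12 had 1 lesional UMI there (4.31 and 228 CPM, 53.0-fold lower). Ccl2 and Ccl7, which attract monocytes, were 2.60-fold and 3.73-fold lower, while Cxcl1 and Cxcl2, which attract neutrophils, were 10.6-fold and 2.27-fold higher. Saa3, an acute-phase protein gene, had 329 and 4357 CPM in lesional and imiquimod gated cells (13.3-fold lower). After thinning it was seen in 72.2% of imiquimod gated cells and in 63.3% of imiquimod T cells. Aif1, encoding the macrophage actin-bundling protein Iba1, had 205 and 694 CPM (3.38-fold lower), and 284 and 1462 CPM in C1q-rich cells (5.14-fold lower). Of 25 inflammatory genes, 4 were higher and 8 lower, but 8 and 5 among C1q-rich cells. Il1b, the interleukin-1 beta gene, had 348 and 814 CPM in all gated cells (2.34-fold lower, 1.96 to 2.82) and 388 and 464 CPM in the C1q-rich ones (1.20-fold lower, 0.963 to 1.5).

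For the class II genes of antigen presentation the difference depended on which lesional cells were counted. Of 15 MHC class II genes, 7 were higher and 1 lower (median 0.67), and 7 of 12 higher and 0 lower among C1q-rich cells (1.07). H2-Aa, a class II chain, had 4980.2 CPM in lesional, 3129 CPM in imiquimod and 11860 CPM in untreated gated cells. The lesional over imiquimod ratio was 1.59 in all gated cells, 1.18 without the richest cell of each library, and 2.04 among C1q-rich cells (1.91 to 2.17). Ciita, the master activator of class II genes, was 8.72-fold higher among C1q-rich cells (112 and 12.8 CPM). The 7 lesional gated cells with an Epcam UMI held H2-Aa at 9805 CPM and Ms4a7 at 152 CPM. Without gated cells with an Epcam UMI, a step added after the values were seen, H2-Aa had 2963 and 2918 CPM in lesional and imiquimod gated cells (ratio 1.02, 0.943 to 1.09). Then 2 of 14 class II genes were higher and 2 lower (median 0.10, beside 0.22 for all genes), so the difference over all gated cells was not seen without them. Among C1q-rich cells without Epcam, H2-Aa had 3717 and 2258 CPM (1.65-fold higher, 1.52 to 1.78), and 5 of 12 class II genes were higher and 0 lower (0.74, beside 0.30).

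By the rule for naming genes of any function, the 10 with the highest ratios were Mmp12, Spp1, Mfge8, Cd36, Gpnmb, Epcam, Perp, Mt3, Mmp19 and Rnf128, and the 10 with the lowest were Igfbp7, Rarres2, Cxcl5, Apod, Lum, Col1a1, Bgn, Tnc, Cpxm1 and Cxcl12. The second set is made up of genes known from fibroblasts and other stromal cells. Lum and Col1a1 had 0 CPM in lesional gated cells and 214 and 180.4 CPM in imiquimod gated cells, and in the C1q-rich cells Col1a1 had 0 and 23.0 CPM. All 6 fibroblast markers were lower in lesional gated cells, 2 of 5 among the C1q-rich. Dcn had 50.6 and 1577 CPM, and 68.9 and 282 CPM in C1q-rich cells. Perp had a ratio of 56.5 in all gated cells but 1.34-fold lower in C1q-rich cells (0.201 to 56.8). Its lesional UMIs and those of Krt14 (767 and 1.34 CPM) came mostly from single cells.

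**Figure D2:**
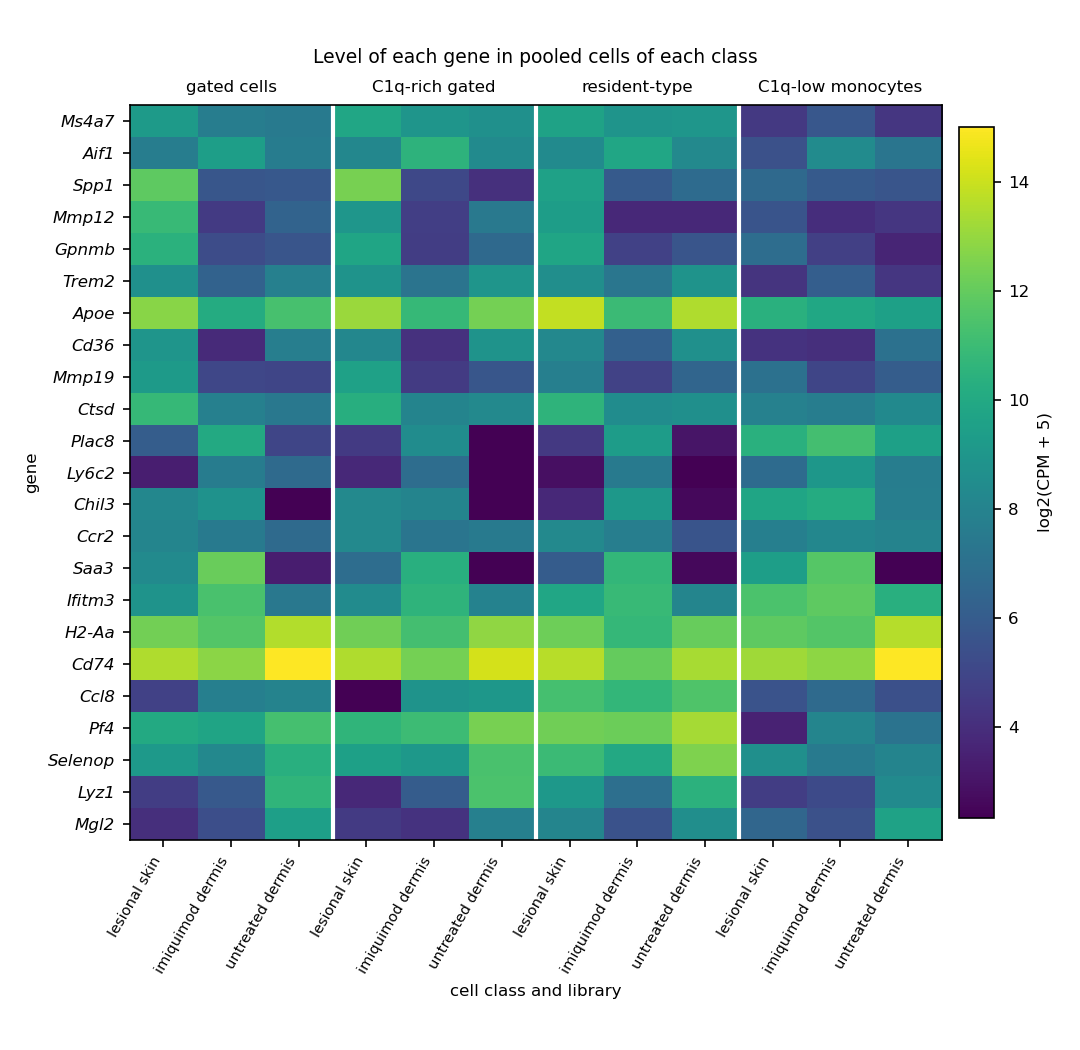
Level of 23 genes as log2(CPM + 5) (colour) in pooled gated cells, C1q-rich gated cells, resident-type cells and C1q-low monocytes of lesional skin, imiquimod dermis and untreated dermis. Spp1, Mmp12 and Gpnmb are bright in all lesional macrophage columns (Spp1 3663 CPM in gated and 766 CPM in resident-type cells). Plac8 and Saa3 are bright in imiquimod columns, Plac8 also in lesional C1q-low monocytes, and H2-Aa and Lyz1 in untreated gated cells.

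The lesional totals rested on few cells, so the 33 gated cells are given one by one in the plot of lesional cells. Spp1 reached 10 UMIs in 8 of them, with 447, 343, 202, 150, 61, 39, 27 and 25 UMIs, and was at 0 in 21. Those 8, a split made after the values were seen, had Gpnmb in 8 of 8 cells (4608 CPM), Mmp12 in 6 of 8 (6489 CPM), Trem2 in 8 of 8 (818 CPM) and Lyz2, the lysozyme gene of myeloid cells, at 11214 CPM. The other 25 had Gpnmb in 3 cells (35.5 CPM), Mmp12 in 3 (23.7 CPM), Trem2 in 15 (237 CPM) and Lyz2 at 3603 CPM. Ccr2 was in 0 of the 8 and in 15 of the 25 (375 CPM). H2-Aa stood at 146 CPM in the 8 and 6938 CPM in the 25, and the invariant chain gene Cd74 at 409 and 15862 CPM. Ms4a7 was alike in both, at 624 CPM in 7 of 8 cells and 599.9 CPM in 13 of 25. Of the H2-Aa UMIs in the 25 cells, 638, 231 and 145 came from 3 cells with Epcam and no Ms4a7, which had 2, 0 and 0 UMIs of Ccr2. No Spp1 value was used by the gate, and since the split was made on Spp1, no test is given.

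Single cells also set some sums. One cell of 30611 UMIs with 3.92 C1q UMIs per 10000 held 554 of the 672 Mmp12 UMIs, 271 of 482 for Gpnmb and 777 of 933 for Mfge8. The largest cell, of 44842 UMIs, held 81 of 81 Ube2c and 22 of 28 Mki67 UMIs, both genes of dividing cells, with 638 UMIs of H2-Aa and 61 of Epcam. Without low-C1q cells the cell-cycle list changed sides: 9 of 23 genes were higher and 0 lower in lesional gated cells, but 0 of 19 higher and 4 lower in C1q-rich cells. Another cell, of 23319 UMIs, held 232 of 273 Krt14 UMIs and was the only lesional gated cell with over 0.5% of UMIs from markers of other cell types (2.38%), Langerhans markers aside. In imiquimod dermis Spp1 had a UMI in 111 of 702 gated cells and Gpnmb in 88, and in untreated dermis in 5 and 4 of 35. After thinning, Spp1 was seen in 24.1%, 4.91% and 4.55% of gated cells of lesional, imiquimod and untreated skin.

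**Figure D3:**
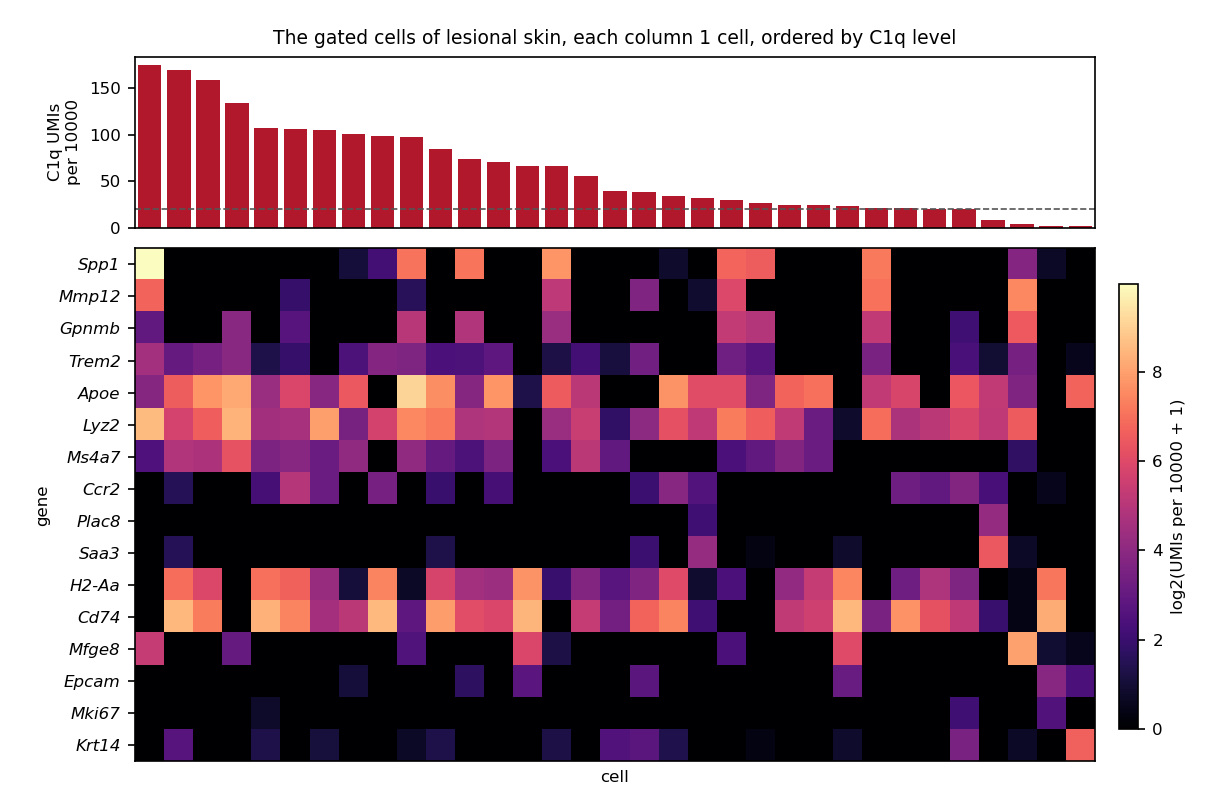
The 33 gated cells of lesional skin, each column 1 cell, ordered by C1q UMIs per 10000 (bars, dashed line at 20), with the level of 16 genes as log2(UMIs per 10000 + 1) (colour). Columns bright for Spp1 and Gpnmb are mostly dark for H2-Aa, Cd74 and Ccr2 (Cd74 409 CPM in the 8 Spp1 cells and 15862 CPM in the other 25), and the low-C1q cells at the right hold the Mki67 and Krt14 signal.

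Within each library, gated cells were then binned by C1q level. In imiquimod dermis the bins of under 20, 20 to 50, 50 to 100 and over 100 C1q UMIs per 10000 held 426, 150, 89 and 37 cells. Ms4a7 was higher in richer bins, at 75.4, 357, 646 and 668 CPM, as did Apoe (814, 1353, 1688 and 3505 CPM) and Aif1 (361, 1261, 1671 and 1793 CPM). Plac8 was lower in richer bins, at 1349.5, 435, 334 and 115 CPM, and so did Chil3, a monocyte and macrophage chitinase-like gene (518, 300.1, 267 and 123 CPM). The fibroblast gene Dcn was lower beside them (2138, 349, 237 and 123 CPM), and cells with over 0.5% of other cells' RNA numbered 111, 21, 13 and 1. The share of the Plac8 slope that goes with foreign RNA was not tested.

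In lesional skin the same bins held 5, 12, 8 and 8 cells, too few for a trend, with Ms4a7 at 56.5, 385, 1178 and 1584 CPM and Spp1 at 339, 3719.8, 5470.2 and 9098 CPM. Of the 448 Spp1 UMIs in the last lesional bin, 447 came from 1 cell. In untreated dermis they held 9, 8, 10 and 8 cells. H2-Aa was highest in the low bin there (14961, 11456, 5119.5 and 2489 CPM) and Apoe lowest (499, 2306, 7135 and 9659 CPM). Low-C1q gated cells of untreated dermis thus differed from those of imiquimod dermis in class II genes, which were higher, and in Plac8, which was lower. The monocyte gene Ly6c2 was closer there, at 172 CPM (104 to 269) in the 9 untreated cells and 238 CPM in imiquimod dermis. Of its 19 untreated UMIs, 14 came from 1 cell.

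**Figure D4:**
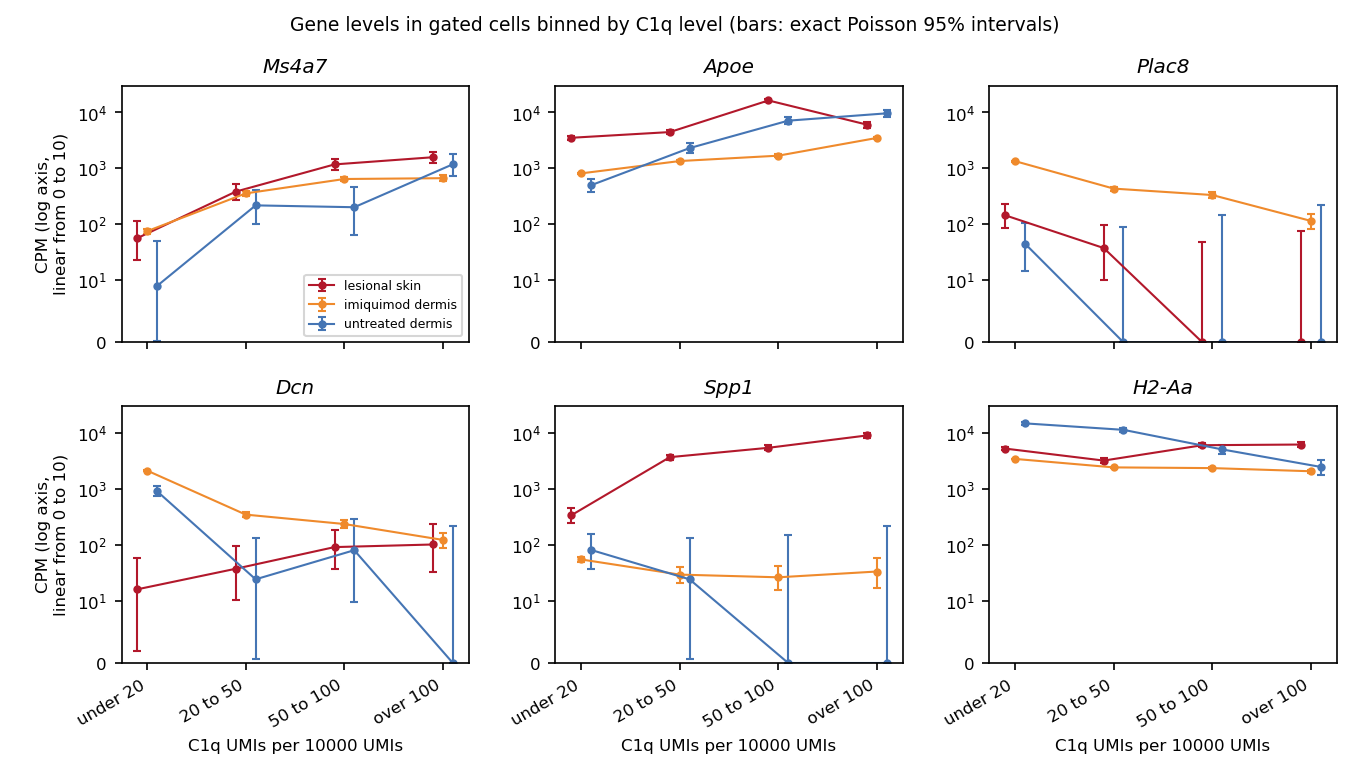
CPM of 6 genes (log axis, linear between 0 and 10) in gated cells binned by C1q UMIs per 10000, for lesional skin, imiquimod dermis and untreated dermis, with exact Poisson 95% intervals. Ms4a7 is higher in the last bin than in the first of each library (untreated 1185 and 9.07 CPM). Plac8 and Dcn are lower in the richer imiquimod bins (Plac8 1349.5 CPM in the first and 115 CPM in the last). Spp1 reaches 9098 CPM in the last lesional bin, nearly all of it from 1 cell.

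The next comparison set imiquimod dermis against untreated dermis. Of 8075 genes, 245 (3.03%) were higher and 519 (6.43%) lower in imiquimod gated cells, with an all-gene median of -0.23. Scaling by the median ratio, which moves every log2 ratio by 0.33, turned the split to 438 higher and 306 lower (58.9% of calls higher, against 32.1%). Leaving the cell richest in each gene out of each library turned it to 331 higher and 208 lower of 7001 genes. Among C1q-rich cells 112 of 7213 (1.55%) were higher and 308 (4.27%) lower, and without cells of over 0.5% RNA of other types 115 of 7099 (1.62%) and 317 (4.47%). The untreated library enters both this comparison and the next, so the 2 are not independent.

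Monocyte genes were more often higher in imiquimod cells: of 20 measured, 10 were higher and 0 lower (median 1.98, or 1.40 with genes at 0 set to their bound), and 9 of 18 among C1q-rich cells (2.26, or 0.95). In the C1q-rich cells Plac8 had 355 CPM in imiquimod and 0 CPM in untreated dermis, at least 9.81-fold higher. Chil3 had 263 and 0 CPM (at least 7.25-fold), Ly6c2 109 and 0 CPM (at least 3.02-fold) and the fractalkine receptor gene Cx3cr1 159 and 0 CPM (at least 4.39-fold). Saa3 had 1293 and 0 CPM (at least 35.7-fold), Ifitm3 1535 and 241 CPM (6.36-fold higher, 4.11 to 10.4) and Il1b 464 and 109 CPM (4.27-fold higher, 2.24 to 9.36). Ms4a7 at 488 and 410.2 CPM differed little (1.19-fold, 0.847 to 1.73). Of 27 interferon-stimulated genes 7 were higher and 1 lower, and 3 and 1 of 26 among C1q-rich cells.

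Lower in imiquimod cells were resident-macrophage and class II genes. Of 25 resident genes other than those of the gate, 0 were higher and 13 lower (median -1.21), and 0 and 13 of 22 among C1q-rich cells (-1.89). The gate's limit of 2 resident UMIs is looser in shallow cells. The 3 C1q-rich bins had median depths of 2699, 1746 and 1878 UMIs in untreated dermis, and 7471.5, 6325 and 7816 in imiquimod dermis. How much of the difference in resident genes goes with depth was not tested. Cd36 had 12.8 and 446 CPM in imiquimod and untreated C1q-rich cells (34.8-fold lower), Igf1, a growth factor made by resident macrophages, 17.3 and 289.6 CPM (16.8-fold lower), and Mgl2, a galactose-type lectin, 13.3 and 229 CPM (17.3-fold lower). Lyz1, a second lysozyme gene, had 60.2 and 2739 CPM (45.5-fold lower, 36.6 to 56.7). Of 16 MHC class II genes 1 was higher and 7 lower (-0.92). H2-Aa had 3129 and 11860 CPM in all gated cells (3.79-fold lower) and 2363 and 7734 CPM in C1q-rich cells (3.27-fold lower), where 1 untreated cell mattered: without the richest cells it had 2281 and 3717 CPM. Trem2 was 3.41-fold lower in imiquimod C1q-rich cells (142 and 483 CPM) and Apoe 2.93-fold lower (1789.6 and 5248 CPM). By the naming rule the 10 highest were Saa3, Ifitm1, Rarres2, Chil3, Cxcl5, Hp, Ccl21a, Timp1, Lum and Cxcl14, of which Rarres2, Ccl21a, Lum and Cxcl14 are stromal genes, and 4 of 6 fibroblast and 5 of 6 neutrophil markers were higher. The 10 lowest were Lyz1, Chac1, Mgl2, Trib3, Cd36, Cd83, Mucl1, Got1, Mmp13 and Timd4. Chac1 and Trib3, genes of amino-acid stress, had 104 and 93.2 CPM in untreated gated cells, from 20 and 18 UMIs.

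Lesional skin was set against untreated dermis in the same way. Of 5660 genes, 336 (5.94%) were higher and 230 (4.06%) lower in lesional gated cells, with an all-gene median of 0.15, and scaling by the median ratio, a shift of 0.12, gave 266 and 277 (49.0% of calls higher, against 59.4%). Among C1q-rich cells 145 of 3748 (3.87%) were higher and 127 (3.39%) lower. Lipid and lysosome genes were higher for 19 of 34 and lower for 0 (median 1.24), and for 11 and 0 among C1q-rich cells (0.66). In C1q-rich cells Gpnmb had 888 and 96.5 CPM (9.19-fold higher, 4.58 to 21.6), Acp5, a lysosomal phosphatase, 573 and 24.1 CPM (23.7-fold higher, from 2 untreated UMIs), and Ctsl 2538 and 458 CPM (5.53-fold). Trem2, at 457 and 483 CPM, was 1.06-fold lower (0.715 to 1.53) and Apoe 1.66-fold higher. So Spp1 and Gpnmb stood out in lesional cells against both other libraries, whereas Trem2 was lowest in imiquimod cells. Chil3 had 306 and 0 CPM (at least 8.45-fold higher) while Plac8 had 17.2 and 0 CPM, from 4 UMIs.

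Of 22 resident genes measured, 2 were higher and 12 lower in lesional than in untreated gated cells (median -1.25), and 0 and 11 of 19 among C1q-rich cells (-1.68). Here too the gate's limit of 2 resident UMIs was looser in the shallower untreated cells, and the part of depth was not tested. Lyz1 had 8.62 and 2739 CPM (318-fold lower, 87.0 to 2641), Clec10a, another lectin, 4.31 and 193 CPM (44.8-fold lower), and Ccl8 0 and 519 CPM (at least 40.1-fold lower). Pf4, platelet factor 4, had 1568 and 5453 CPM (3.48-fold lower), with 261 of the 364 lesional UMIs in 1 cell. By the naming rule the highest 10 genes over all gated cells were Mfge8, Spp1, Chil3, Perp, Mt3, Acp5, Gpnmb, Mmp14, Epcam and Sdc1, and the lowest were Cd209d, Lyz1, Mucl1, Ccl17, Mgl2, Cd209a, Klrk1, Chac1, Apod and Klra17. Ccl17, Mucl1 and Klra17 rested on 1 untreated cell: without it they had 5.83, 17.5 and 12.0 CPM there, against 289.9, 311 and 82.8 CPM with it.

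**Figure D5:**
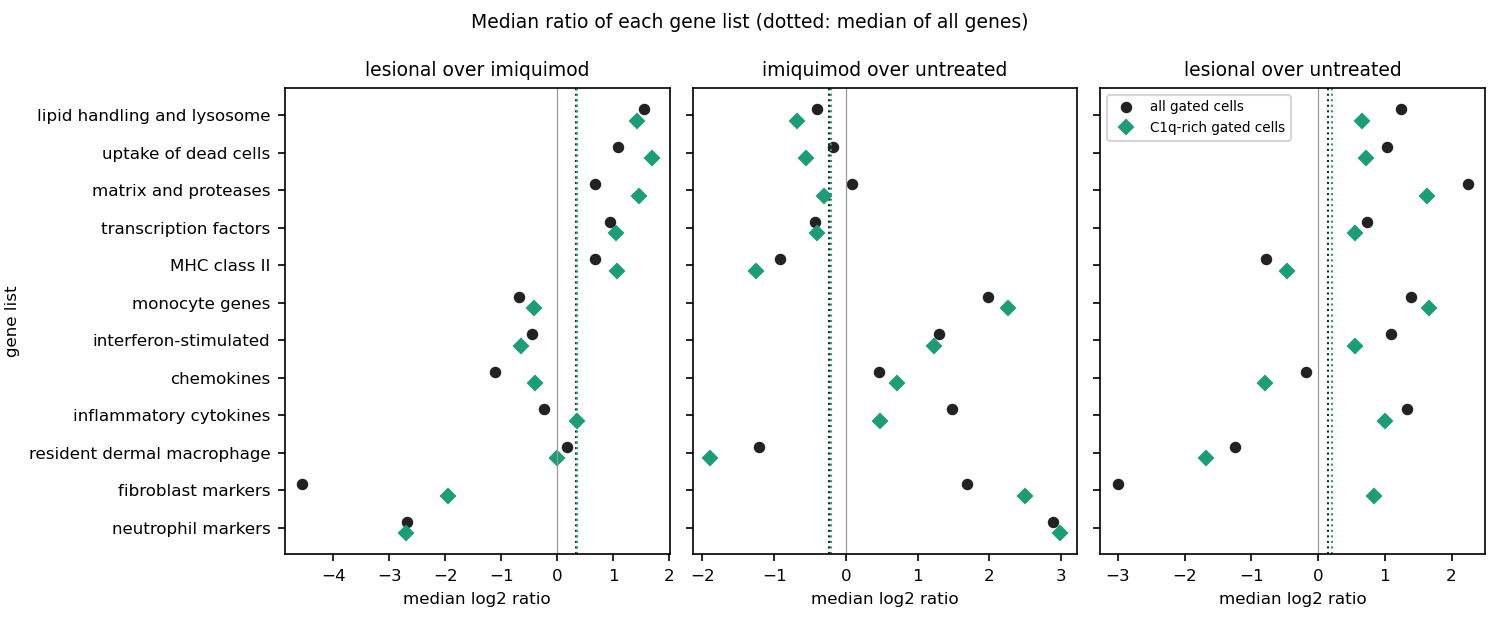
Median log2 ratio of 12 gene lists for lesional over imiquimod, imiquimod over untreated and lesional over untreated gated cells, over all gated cells (circles) and the C1q-rich ones (diamonds), from log2(CPM + 5); dotted lines are the medians of all genes. Lipid and lysosome genes lie at 1.56 in the first panel, -0.40 in the second and 1.24 in the third, and monocyte genes at -0.68, 1.98 and 1.40. The neutrophil list had no measured gene in the third panel.

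Within each library, gated cells were compared with resident-type cells, which passed the same gate but for at least 3 UMIs of Mrc1, Cd163, F13a1 and Folr2. Since low resident genes chose the gated cells, lower resident genes in them are a description. Called higher in gated cells were 231 of 7946 genes (2.91%) in lesional skin, 429 of 6764 (6.34%) in imiquimod dermis and 166 of 7155 (2.32%) in untreated dermis, and called lower were 235 (2.96%), 145 (2.14%) and 136 (1.90%). With both classes held to at least 20 C1q UMIs per 10000, 138 of 7664 (1.80%), 85 of 6443 (1.32%) and 74 of 6774 (1.09%) were higher and 192 (2.51%), 136 (2.11%) and 35 (0.517%) lower. Of the resident genes outside the gate, 25 of 27 were lower in lesional gated cells, 14 of 24 in imiquimod gated cells and 20 of 28 in untreated gated cells. Lyve1, a hyaluronan receptor, had 0 CPM in lesional gated cells and 319.7 CPM in lesional resident-type cells (at least 37.9-fold lower), and Retnla, a marker of alternatively activated macrophages, 0 and 1467 CPM (at least 174-fold lower).

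The chemokine genes Ccl8 and Cxcl13 separated the classes too. Ccl8 had 22.5 CPM in gated and 2499.7 CPM in resident-type cells of lesional skin (111-fold lower, 56.4 to 258), 217 and 1678 CPM in imiquimod dermis (7.72-fold lower), and 254 and 2881 CPM in untreated dermis (11.4-fold lower). Cxcl13, which attracts B cells, had 2.81 and 948 CPM in lesional skin (338-fold lower, from 1 UMI), 90.3 and 446 CPM in imiquimod dermis (4.94-fold lower), and 62.1 and 68.8 CPM in untreated dermis. Chil3 had 289 CPM in gated and 8.54 CPM in resident-type cells of lesional skin (33.9-fold higher, 18.6 to 67.7), and 440.5 and 547 CPM in imiquimod dermis (1.24-fold lower, 1.19 to 1.30). The difference between the 2 libraries was not tested.

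Class II genes were higher in gated than in resident-type cells for 8 of 14 genes in imiquimod dermis, 6 of 13 in untreated dermis and 1 of 13 in lesional skin, with 0 lower in each. Among the C1q-rich of both classes H2-Aa was 1.14-fold higher in lesional skin (4812 and 4227 CPM), 1.85-fold in imiquimod dermis (2363 and 1277 CPM) and 2.09-fold in untreated dermis (7734 and 3696 CPM). The untreated level of 7734 CPM rested largely on 1 gated cell. Without that cell the level, given above, was close to the 3696 CPM of resident-type cells. Spp1 was 9.30-fold higher in lesional C1q-rich gated than C1q-rich resident-type cells (5437 and 585 CPM, 8.45 to 10.2) and 1.93-fold lower in imiquimod ones (29.2 and 56.3 CPM, 1.47 to 2.56). Ms4a7 at 900.4 and 970.4 CPM, 488 and 652 CPM, and 410.2 and 513 CPM differed by less than 1.5-fold in all 3 libraries. By the naming rule, applied over all gated cells, genes higher in gated cells of both inflamed libraries were Mfge8, Crip2, Ly6a, Klrd1, H2-DMb2, Prnp and Cd24a, and the 10 lowest were Ccl8, Cbr2, Cxcl13, Pf4, Mucl1, Ccl12, Selenop, Wwp1, Dab2 and Stab1. Gated cells under 20 C1q UMIs per 10000 held 782 of 933 Mfge8 UMIs in lesional skin and 396 of 431 in imiquimod dermis.

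C1q-low monocytes passed the same gate but for at most 2 C1q UMIs, and needed at least 2 UMIs of Ly6c2, Plac8 and Ccr2 together. Since those genes chose the monocytes, lower levels of them in gated cells are a description. Against these monocytes (85 in lesional skin, 780 in imiquimod dermis), gated cells differed in both inflamed libraries. In lesional skin 327 of 8490 genes (3.85%) were higher and 575 (6.77%) lower, while in imiquimod dermis 227 of 6723 (3.38%) were higher and 122 (1.81%) lower. Ms4a7 had 607 CPM in gated cells and 16.6 CPM in monocytes of lesional skin (36.6-fold higher), and 200.2 and 50.1 CPM in imiquimod dermis (3.99-fold higher). Trem2 was 29.3-fold and 1.17-fold higher. Plac8 had 61.8 and 1305 CPM in lesional skin (21.1-fold lower) and 1049 and 2362 CPM in imiquimod dermis (2.25-fold lower). Lipid and lysosome genes were higher in gated cells for 27 of 35 in lesional skin (median 1.57) and 5 of 33 in imiquimod dermis (0.13), and monocyte genes were lower for 11 of 21 in each. The monocyte list includes the genes that chose the monocytes. Genes past the naming rule in both libraries were Ms4a7, Fxyd2, Acp5, Pf4, Pltp, Lpl and Cd72 on the higher side. On the lower side were Chil3, and Ly6c2 and Plac8, which chose the monocytes.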

How the data were processed

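The deposited values are raw UMI counts of 31053 genes per barcode. Per the labels, skin was digested with enzymes, dead cells were sorted out by FACS and the Chromium 3′ chemistry, version v3, was used. CASAVA, Cell Ranger and build mm10 are named in the submitters' processing notes, and the matrix headers give software version 3.0.2. The settings for calling cells are not stated. Free RNA was not subtracted here, so abundant transcripts add UMIs to cells that do not make them.

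Cells with at least 200 genes and under 20% mitochondrial UMIs were kept, and duplicate symbols (36) were reduced to the first. The gate was applied to raw counts, so it depends on depth. For each library and class, a gene's UMIs were added up and scaled to the class total, as CPM. CPM errors are exact Poisson, shares exact binomial (Clopper-Pearson) and ratios exact conditional binomial 95% intervals, and with 1 library a group there is no test. Compared genes had at least 10 UMIs over both groups and 10 CPM in either, and gate genes were left out. Ly6c2, Plac8 and Ccr2, which chose the C1q-low monocytes, were not left out. Folds against 0 UMIs use 3 UMIs over the group. Doublets were kept, as the gate has no doublet step, and scored for an alternative. Named genes have at least 50 CPM in the higher group, an interval beyond 2-fold, and no other class there at over 10 times the level, leaving out mitochondrial, ribosomal, haemoglobin, Gm, Rik and sex-chromosome genes, and the 10 largest each way are named. Other genes are list members or were chosen after their values were seen. The gated cells and the 29 gene lists were chosen with earlier results of these data known. Alternatives numbered 16, and 4 more were added after the data were seen. Calculations used Python 3.11.15 with numpy 2.4.6, scipy 1.17.1, pandas 2.3.3 and matplotlib 3.10.9, and were tested on simulated data.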

Additional observations from a re-analysis of the deposited data

Results flagged for a closer look

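The genes below stood on opposite sides in the 2 inflamed libraries when gated cells were set against resident-type cells of their own library, each past 1.5-fold. The difference between libraries was not tested, since each is 1 library. Cd209a, a lectin gene of dendritic cells and some macrophages, had a log2 ratio of -5.15 in lesional skin and 0.97 in imiquimod dermis. Mmp9, gelatinase B, had -1.79 in lesional skin and 0.81 in imiquimod dermis, and Tnfsf9, the 4-1BB ligand gene, had -1.47 and 0.78. The 4 genes known from dividing cells ran the other way: Mki67 had 1.67 in lesional skin and -0.77 in imiquimod dermis, Birc5 3.20 and -0.85, Stmn1 2.78 and -0.77, and Nusap1 3.05 and -0.75. In lesional skin 22 of 28 Mki67 UMIs came from 1 gated cell of 44842 UMIs. Among C1q-rich cells of both classes none of the 7 genes kept opposite calls. There Cd209a had a log2 ratio of 0.04 in imiquimod dermis, Mmp9 had -1.59 and -0.03 in lesional skin and imiquimod dermis and Tnfsf9 -1.34 and 0.66, with no call in either library for Mmp9 or Tnfsf9. Lesional C1q-rich gated cells had 1 UMI of Mki67, 0 of Birc5, 3 of Stmn1 and 0 of Nusap1.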

How the results depend on the processing

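No paired analysis was possible because each group was 1 library. The share of gated cells moved with the gate. With at least 10 C1q UMIs it was 5.83% in imiquimod and 3.65% in untreated dermis. With resident genes at 0 it was 0.679%, 5.79% and 2.11% in lesional, imiquimod and untreated skin, and with the gate on cells thinned to 2000 UMIs 2.76%, 12.0% and 13.1%. On thinned cells the imiquimod share was thus no longer above the untreated share. In imiquimod dermis it was 11.1% without cells of over 0.5% RNA of other types (Langerhans markers not counted, foreign RNA below), 12.9% with S100a8 and S100a9 under 0.5%, 5.53% with at least 20 C1q UMIs per 10000, and 4.83% with both of the first and last of these. In untreated dermis it was 4.99% with at least 20 C1q UMIs per 10000, with or without foreign RNA.

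Counts of called genes moved as follows. For lesional over imiquimod cells, C1q-rich cells gave 249 lower (245 without foreign RNA), the mean over cells 2287 higher and 1096 lower, median-ratio scaling 569 and 800, an interval beyond 2-fold 584 and 205, and a minimum of 50 UMIs and 50 CPM 582 and 258. Leaving out the richest cell for each gene gave 474 higher and 506 lower, so that more genes were lower than higher. For imiquimod over untreated cells, at least 10 C1q UMIs gave 103 higher and 272 lower, resident genes at 0 142 and 274, cells with Y-linked UMIs alone 132 higher, C1q-rich cells 112 and 308 (115 and 317 without foreign RNA), the mean 1603 and 2221, median-ratio scaling 438 and 306, 2-fold 125 and 273, the 50 minimum 338 lower, and the richest cell left out 331 higher and 208 lower. For lesional over untreated cells, at least 10 C1q UMIs gave 160 and 124, resident genes at 0 176 and 150, Y cells alone 210 higher, C1q-rich cells 145 and 127 with or without foreign RNA, the mean 1452 and 960, 2-fold 161 and 130, and the 50 minimum 161 and 109. The cause was not tested, beyond fewer cells or genes in the stricter settings.

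Of the named genes few turned direction (log2 ratios): for lesional over imiquimod, Mt3 was -0.89 with Y cells alone and Perp -0.21 in C1q-rich cells (-0.14 without foreign RNA). For imiquimod over untreated, Chac1 was 0.19 with at least 10 C1q UMIs and 0.24 in C1q-rich cells (0.25 without foreign RNA), and with resident genes at 0 Mucl1 was 1.18 and Timd4 0.62. Of named-gene values, 309 kept direction and call and 27 lost the call for lesional over imiquimod, 301 and 31 for imiquimod over untreated, and 302 and 29 for lesional over untreated. Of list medians over the alternatives, 39 moved and 413 stayed for lesional over imiquimod. For imiquimod over untreated 37 moved and 400 stayed, and for lesional over untreated 27 and 360. With the gate on thinned cells 8 moved and 16 stayed for lesional over imiquimod. With resident genes at 0, 7 moved and 18 stayed for imiquimod over untreated. Leaving out gated cells with an Epcam UMI kept counts within 1.5 times: 844 and 369, 234 and 523, and 287 and 247 higher and lower in the 3 comparisons. It changed the class II result of lesional over imiquimod cells. Cells with Xist alone were not run, with 7, 0 and 0 gated cells. Precision is limited by the 33 lesional and 35 untreated cells, where 1 cell supplied up to 12.6% and 14.0% of UMIs.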

Other observations

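In lesional over imiquimod gated cells, iron and oxidative genes were higher for 7 of 15 and lower for 1 (median log2 ratio 0.67), and higher for 4 of 14 and lower for 0 among C1q-rich cells (0.69). Fth1, the ferritin heavy chain gene, had 23123 and 14419 CPM (1.60-fold higher, 1.57 to 1.64). Genes of glycolysis and hypoxia were higher for 3 of 22 and lower for 0 (median 0.30), close to the 13.8% and 0.34 of all genes. Among them Vegfa, a vessel growth factor, had 81.5 and 6.96 CPM (11.7-fold higher, 7.16 to 18.8) and Slc2a1, a glucose transporter, 73.0 and 26.9 CPM (2.71-fold higher). Complement genes outside the gate were higher for 4 of 12 and lower for 2, and Cfb, factor B of the alternative pathway, had 0 and 42.2 CPM, at least 5.00-fold lower in lesional skin.

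Chosen after their values were seen, 3 lesional gated cells carried Epcam, an adhesion gene of Langerhans cells and keratinocytes, with class II genes and no Ms4a7. They held 61, 10 and 4 UMIs of Epcam, 638, 231 and 145 of H2-Aa, and 0, 1 and 0 of Lyz2. Another cell with Epcam and H2-Aa but no Ms4a7 was left out of the 3. It held 2 UMIs of Epcam, 4 of H2-Aa, 5 of Lyz2 and 1 of Ccr2. The Langerhans markers other than Cd207, which the gate sets to 0, were Epcam, Cldn1 and Mfge8. They took 0.293% of UMIs in lesional gated cells, 0.00667% in imiquimod and 0.00569% in untreated ones, and passed 0.5% in 3 lesional cells and 0 of the others. The lesional cells past 0.5% included those above with 10 and 4 UMIs of Epcam. The highest share, 2.54%, was in a cell with 777 UMIs of Mfge8, 554 of Mmp12 and 0 of Epcam. The cell with 61 Epcam UMIs did not pass 0.5%. The class II level without cells with Epcam is given with that comparison.

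Of the lesional gated cells, 7 had Xist and no Y-linked UMI, 13 had Y-linked UMIs and no Xist, and 13 had neither. In imiquimod dermis 418 had Y-linked UMIs and 284 neither, and in untreated dermis 11 and 24. Among them Saa3 had a UMI in 8 of 33, 680 of 702 and 1 of 35 cells of lesional, imiquimod and untreated skin.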
